A study of Mus musculus with 12 samples.

Results

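The 6 liver tumors described here arose in Mdr2-KO/FVB mice after partial hepatectomy (post-PHx tumors), and each was compared with non-tumor liver of its own mouse. They were chosen by the tumor name in the sample title, which starts with PHx, and are 6 of the 12 samples of the series. The mice lacked Mdr2 (Abcb4), the canalicular transporter that moves phospholipid into bile, and had 70% of the liver removed at the age of 3 or 6 months. The labels do not say which tumor belongs to which operation age. Tumors and livers were taken at 9 months. PHx1M, PHx3M, PHx4M and PHx5M came from males and PHx2F and PHx6F from females. In array-based comparative genomic hybridization (aCGH), Cy5-labelled tumor DNA (red) and Cy3-labelled DNA of distant non-tumor liver (green) compete for the same probes. Each tumor had 1 array and no dye swap, so a dye effect cannot be told apart from a copy number change that all tumors share. Both tissues carried the knockout and came from an operated mouse, and a change present in both would cancel in the ratio.

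Gains and losses of whole chromosomes and chromosome arms are a common feature of hepatocellular carcinoma. They change the dose of many genes at once, and an oncogene or a tumor suppressor is carried along with its neighbours. A tumor sample also holds normal cells and can hold several clones, both of which draw the measured ratio towards 0. The paper states that tumor cells made up the great majority of the selected tumors on histological sections. By arithmetic, 3 copies in the tumor against 2 in the liver give a log2 ratio of 0.58 when all cells carry the change, and 1 copy against 2 gives -1. Many shifts in these tumors were smaller than that, and they are the main subject here. All values below are log2 ratios of tumor over own liver, centred on the median of the autosomal probes of each array, and the word low-level is used for sizes under 0.4.

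The arrays carried 43020 spots other than controls. Between 39534 and 40431 autosomal probes per array were used, and they filled 491 bins of 5 Mb with at least 5 probes each. The spread between neighbouring probes was 0.155 to 0.187, and the standard error of a bin, from the scatter of its probes, had a median of 0.019 to 0.024 in each tumor. Median red signals were 3.34 to 7.34 times the background that the software had used and median green signals 3.96 to 12.7 times. The X chromosome signal lay 0.92 to 1.03 below the autosomal one in both channels of the 4 male arrays and 0.015 to 0.12 below it on the 2 female arrays. This fits the sex in each name but cannot tell tumors of the same sex apart. The first 4 tumors lay on slide 1 and PHx5M and PHx6F on slide 2. Median green signals were 12.5 and 12.7 times the background in PHx5M and PHx6F and 3.96 to 6.75 times on slide 1. Median red signals were 7.34 and 7.23 times the background in PHx5M and PHx6F and 3.34 to 6.04 times on slide 1. PHx5M stands apart from the other tumors in most results below, so values are given by tumor.

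Over the 6 tumors, 158 of 2946 pairs of a tumor and a bin (5.36%) lay at 0.15 or above, and 64 (2.17%) at -0.15 or below. Of the 158 raised pairs, 73 were low-level and 85 reached 0.4. The 64 lowered ones were all low-level, and no bin of any tumor lay at -0.4 or below. Bins at 0.15 or above numbered 26, 27, 42, 48, 4 and 11 for PHx1M to PHx6F. Bins at -0.15 or below numbered 4, 3, 4, 0, 41 and 12 in the same order. The first 4 tumors thus had mostly raised bins, PHx5M mostly lowered ones, and PHx6F about as many of each. The mean was 26.3 ± 17 raised (SD, n = 6) and 10.7 ± 15.4 lowered bins per tumor, and without PHx5M it was 30.8 and 4.6. In each tumor 86.6% to 91.0% of the bins lay within 0.1 of the centre.

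**Figure D1:**
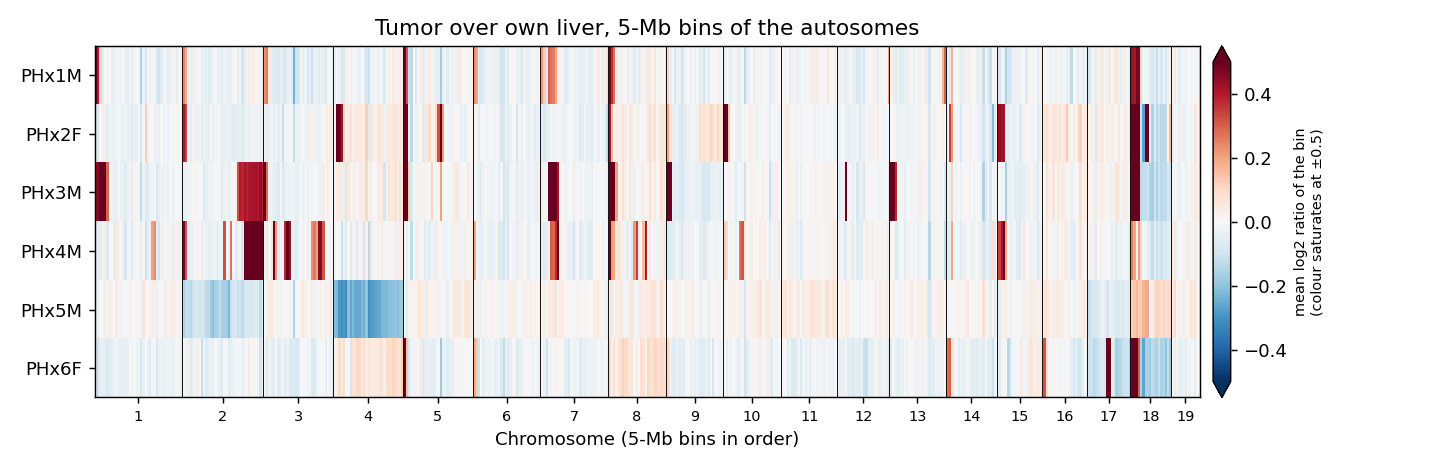
Mean log2 ratio of tumor over own liver in the 491 autosomal 5-Mb bins (columns, in order along chromosomes 1 to 19) of the 6 post-PHx tumors (rows), red above and blue below 0, with the colour saturating at ±0.5. Blocks of strong red at chromosome starts stand in PHx1M, PHx2F, PHx3M, PHx4M and PHx6F, while PHx5M shows pale blue chromosomes 2 and 4 and a pale red chromosome 18.

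The plot of all bins shows changes that differ in size and extent. Strong gains cover parts of chromosomes, often at the chromosome start. Some shallow shifts cover whole chromosomes or what is left of a chromosome beside a strong gain, and others cover only part of a chromosome. Runs of at least 3 neighbouring bins past 0.15 in the same direction numbered 24. Of these, 12 were gains with a mean of at least 0.4, 9 were low-level gains and 3 were low-level losses. PHx1M had 3 runs, PHx2F 4, PHx3M 6, PHx4M 6, PHx5M 3 and PHx6F 2.

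PHx5M held the clearest shallow changes. Its chromosome 4 had a median of -0.23, which is 0.855 of the liver level. All 31 bins of the chromosome lay below 0, from -0.32 to -0.19, so the loss ran from the first to the last probe (3377972 to 154968472, build mm8) with no bin near 0. The other 5 tumors had chromosome 4 medians of 0.002 (PHx1M), 0.057 (PHx2F), 0.029 (PHx3M), -0.001 (PHx4M) and 0.085 (PHx6F), and none of them overlapped PHx5M. Chromosome 2 of PHx5M had a median of -0.11 with all 36 bins below 0, from -0.23 to -0.05. It was lowest in the middle, where 4 bins from 60008405 to 79973951 had a mean of -0.18. Chromosome 18 of PHx5M had a median of 0.12 and all 18 bins above 0, from 0.005 to 0.19. Its lowest bin was thus near 0, and 3 bins from 25244637 to 39970553 had a mean of 0.18.

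These were the whole-chromosome shifts that passed the rule for a tumor (a median of at least 0.1 in size and at least 80% of the bins on that side), 3 of 114 pairs of a tumor and a chromosome (2.63%), and all 3 were in PHx5M. A further 3 chromosomes of PHx5M had every bin on the same side at smaller medians, chromosome 11 at 0.048 (25 bins), chromosome 17 at -0.058 (19 bins) and chromosome 19 at 0.037 (13 bins). No chromosome of another tumor had all its bins on the same side. Chromosomes 11 and 19 held no bin past 0.15 in any tumor.

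**Figure D2:**
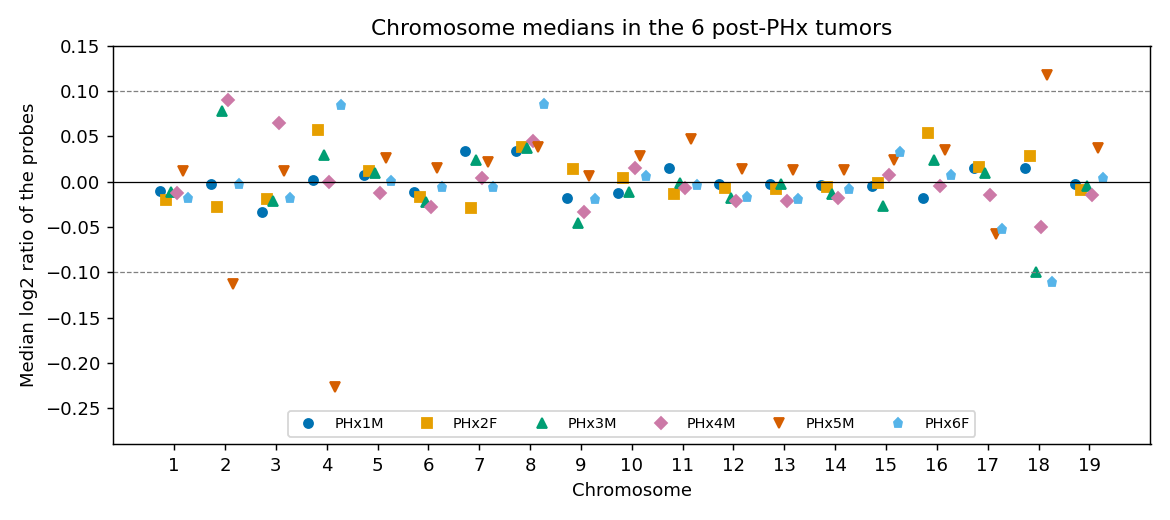
Median log2 ratio of the probes of each autosome in each of the 6 tumors (points, one per tumor), with dashed lines at 0.1 and -0.1. PHx5M lies alone at -0.23 on chromosome 4, PHx5M and PHx6F lie on opposite sides on chromosome 18 (0.12 and -0.11), and all 6 points lie above 0 on chromosome 8.

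PHx6F carried shallow losses on the same chromosomes as its strong gains. On chromosome 17, 2 bins from 40246724 to 49935855, the stretch that holds Vegfa, a main growth factor of blood vessels, had a mean of 0.87 (1.83-fold). All 8 bins before it had values below 0 (mean -0.10), and so did all 8 bins from 55290250 on (mean -0.13). PHx5M also lay below 0 in all of these bins, with means of -0.069 and -0.066 and no gain between them. The other 4 tumors had means of -0.028 to 0.021 in both stretches. PHx5M and PHx6F were the tumors of slide 2 and the other 4 those of slide 1. The part of the slide in this difference was not tested.

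Chromosome 18 repeated this arrangement. In PHx6F its first 4 bins (3254025 to 17044153) had a mean of 0.84 and all 14 bins from 20104301 on lay below 0, with a mean of -0.16. In PHx3M the same 4 bins had a mean of 0.80, and again all 14 later bins lay below 0 (mean -0.12). PHx4M had 13 of these 14 bins below 0 (mean -0.054), PHx1M 12 (mean -0.036) and PHx2F 10. In PHx2F, 2 of them from 30436080 to 39970553 formed a second gain with a mean of 0.54, after a bin at -0.27. PHx5M had none below 0, and its mean over the 14 bins was 0.11. Over the 7 bins from 55019933 to the chromosome end the means were -0.051, -0.068, -0.12, -0.079, 0.098 and -0.15 in PHx1M to PHx6F. The 5 tumors other than PHx5M lay below 0 there and PHx5M above (mean -0.062 ± 0.087, SD, n = 6; exact sign-flip test over tumors, two-sided p = 0.156). The stretch was chosen after its values were seen.

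**Figure D3:**
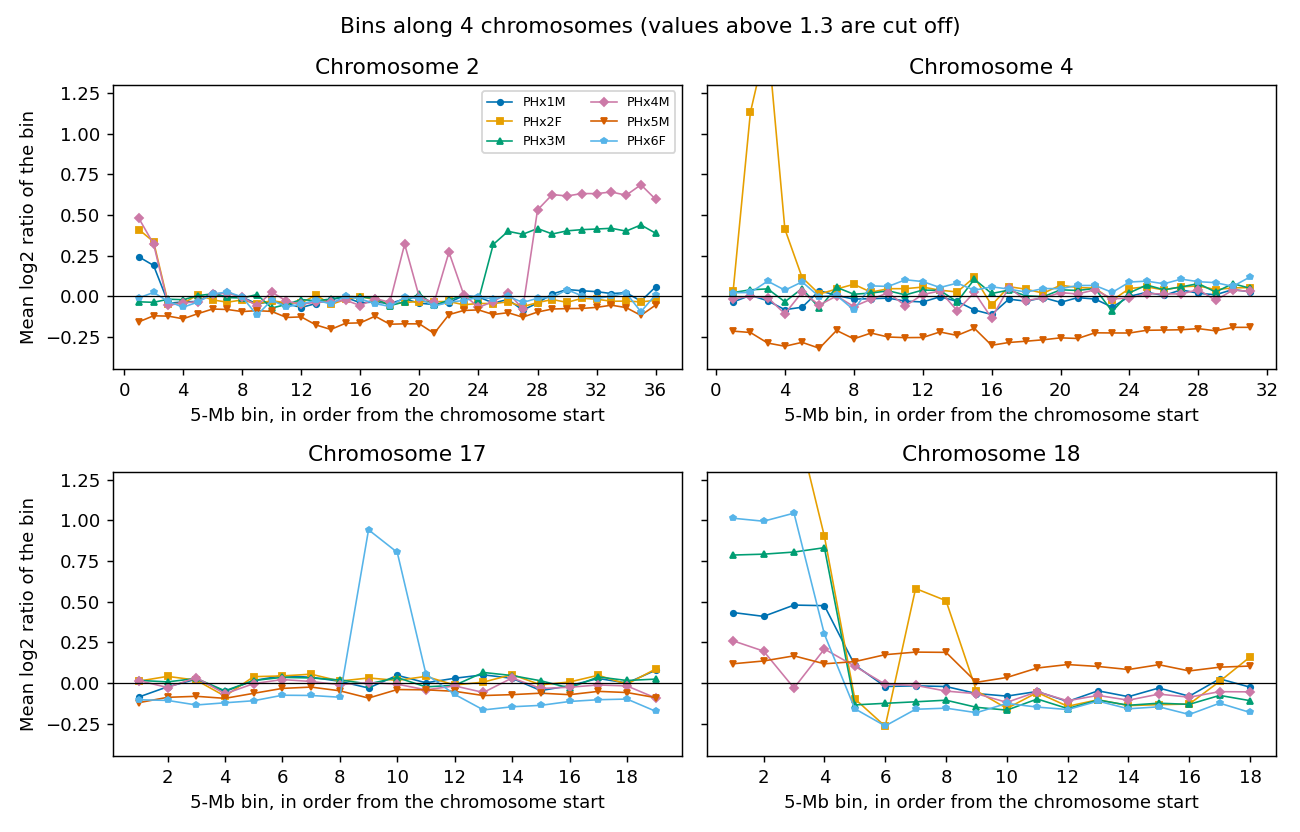
Mean log2 ratio of each 5-Mb bin along chromosomes 2, 4, 17 and 18 (x axis, bins with at least 5 probes in order from the chromosome start) for the 6 tumors (lines). The vertical axis ends at 1.3 and cuts off PHx2F at the start of chromosomes 4 and 18. PHx5M runs below 0 along the whole of chromosomes 2 and 4, the 0.398 and 0.62 gains of PHx3M and PHx4M on chromosome 2 start at different bins, and PHx3M and PHx6F fall below 0 after their gains on chromosome 18.

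The longest gains lay at the far end of chromosome 2, a strong one in PHx4M and one just under the limit in PHx3M. In PHx4M it covered 9 bins from 140024177 to the last probe at 181797594, with a mean of 0.62 (1.54-fold) and bins of 0.53 to 0.69. In PHx3M it started earlier, at 125050341, and covered 12 bins with a mean of 0.398 (1.32-fold), which counts as low-level, and had bins of 0.32 to 0.44. In the 3 bins between these starts PHx3M had a mean of 0.37 and PHx4M one of -0.029. From 140 Mb on, the other tumors had means of 0.016 (PHx1M), -0.027 (PHx2F), -0.076 (PHx5M) and -0.006 (PHx6F). PHx4M was above PHx3M in all of the shared 9 bins, although it had 1 array like the others and the difference has no replicate check.

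Other stretches were shared at different levels. On chromosome 7, 5 bins from 15025385 to 37972380 had means of 0.21 in PHx1M, 0.82 in PHx3M and 0.30 in PHx4M, and of -0.017, 0.038 and 0.001 in PHx2F, PHx5M and PHx6F. The run of PHx4M started later than that of the other 2, at 23126255. On chromosome 8 the first 4 bins had means of 0.29 in PHx1M, 0.16 in PHx2F, 0.69 in PHx3M and 0.29 in PHx4M, against 0.021 in PHx5M and 0.048 in PHx6F. The first 4 bins of chromosome 15 had means of 0.30 in PHx2F and 0.37 in PHx4M, and between -0.066 and 0.009 in the other 4. The first 6 bins of chromosome 1 had means of 0.48 in PHx3M and 0.16 in PHx1M, with the other 4 between -0.051 and -0.004. A few stretches belonged to 1 tumor. PHx2F alone had the gain of chromosome 4 from 5567665 to 19805120, with a mean of 1.05 and bins of 1.13, 1.59 and 0.41. PHx4M alone had that of chromosome 3 from 110133280 to 139716509, a low-level run of 6 bins with a mean of 0.32.

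Bins raised in more than 1 tumor were fewer than those raised in 1. Of 491 bins, 92 were at 0.15 or above in at least 1 tumor, 53 of them in 1, 23 in 2, 9 in 3, 3 in 4 and 4 in 5, and none in all 6. The 4 bins raised in 5 tumors were the first 4 of chromosome 18, and those raised in 4 were the first of chromosome 5 and the first 2 of chromosome 8. The 5 tumors were not the same in each chromosome 18 bin. From 10000482 to 14968539 PHx4M was the tumor not raised (-0.031) and PHx5M had 0.17. In the others it was PHx5M, at 0.12 to 0.14. For losses, 58 bins were at -0.15 or below in at least 1 tumor, 6 of them in 2 tumors and none in 3. In 11 bins, on chromosomes 2, 4, 5, 15 and 18, a tumor was raised where another was lowered. The bin profiles of 2 tumors correlated with r between -0.017 and 0.66 over the 491 bins (15 pairs, median 0.23), highest for PHx1M with PHx3M and lowest for PHx4M with PHx5M. Without bins of 0.4 or more in either tumor, r ran from -0.19 to 0.40, with the lowest value for PHx3M with PHx5M and the highest for PHx2F with PHx6F. Neighbouring bins share segments and are not independent, so these values describe the profiles. Tumors on the same slide had r of -0.010 to 0.66 (median 0.34) and tumors on different slides -0.017 to 0.62 (median 0.125) over all bins. Without bins of 0.4 or more in either tumor these medians were 0.24 and 0.13. The part of the slide in this difference was not tested.

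Over the 6 tumors, chromosome 8 was the only autosome whose median lay above 0 in all of them, and no autosome lay below 0 in all. In the order of the tumor numbers its medians were 0.034, 0.038, 0.037, 0.045, 0.038 and 0.086 (mean 0.046 ± 0.020, SD, n = 6). Its exact sign-flip p of 0.031 is the smallest that 6 tumors allow. After adjustment over 19 autosomes it was 0.594, and no autosome passed. A single autosome at that smallest p cannot pass this adjustment, whatever its values. Limma's test over the 19 medians called chromosome 8 (adjusted p = 0.013) and no other. With the bins from 20 Mb on alone, PHx1M lay at -0.004 and the other 5 tumors at 0.023 to 0.070 (mean 0.034 ± 0.025, SD, n = 6; exact sign-flip test, p = 0.0625), an alternative chosen after the values were seen. In PHx6F 25 of 26 bins of the chromosome were above 0, the highest of them at 0.11. PHx6F also had 29 of 31 bins of chromosome 4 above 0 (median 0.085), and PHx2F 29 of 31 on chromosome 4 (median 0.057) and 19 of 20 on chromosome 16 (median 0.054).

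Tested bin by bin over the 6 tumors with limma, none of the 491 bins (0%) was called above 0 and 1 (0.204%) below 0 at an adjusted p of 0.05, while 118 had an unadjusted p under 0.05. The called bin lay on chromosome 13 from 85498535 to 89938007 and had 21 probes. Its values were -0.10, -0.085, -0.10, -0.14, -0.086 and -0.066 in PHx1M to PHx6F (mean -0.098, SE 0.011, limma adjusted p = 0.042). All 6 tumors were below 0 within a narrow range. The next bins by p were 1 on chromosome 14 from 105047475 to 109719813 (mean -0.076, limma adjusted p = 0.059) and 1 on chromosome 8 from 90265077 to 94728400 (mean 0.063, limma adjusted p = 0.059), each on 1 side of 0 in all 6 tumors. The large gains, which differed widely between tumors, did not pass. The first bin of chromosome 18, for example, had values of 0.43, 2.70, 0.79, 0.26, 0.12 and 1.01 (mean 0.89, SE 0.34, limma adjusted p = 0.198). Without PHx5M, 62 bins were called (6 above and 56 below 0), and the call of 1 bin was lost when any other tumor was left out (0 called in each case, with 75 to 92 bins at an unadjusted p under 0.05).

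Mouse chromosomes are acrocentric, with the centromere at the coordinate start. The mean of the first bin (0 to 5 Mb), over the 17 autosomes that had it, was 0.15, 0.35, 0.31, 0.12, -0.013 and 0.13 for PHx1M to PHx6F. In the fifth bin, 20 to 25 Mb from the start and present on 18 autosomes, it was 0.000, 0.003, 0.088, 0.032, 0.000 and -0.036. Averaged over tumors it declined from 0.17 in the first bin to 0.13, 0.070, 0.032 and 0.015 in the next ones, and the share of tumor and bin pairs at 0.15 or above declined from 28.4% in the first to 3.70% in the fifth. PHx5M did not show this, and its first 4 values were -0.013 to -0.004.

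Most of this came from bins of 0.4 or more, and a smaller difference was left when they were excluded. Among bins under 0.4 in size, those in the first 20 Mb exceeded the rest by 0.041 in PHx1M, by 0.031 in PHx6F, by 0.019 in both PHx2F and PHx4M, by 0.016 in PHx3M and by 0.002 in PHx5M. The mean was 0.021 ± 0.014 (SD, n = 6) and all 6 tumors were above 0 (exact sign-flip test, two-sided p = 0.031, the smallest that 6 tumors allow). Raising the requirement to sizes under 0.25 left 0.011 (exact sign-flip test, p = 0.031). A bin that a strong gain covers in part can fall under the limit, and its part in the difference was not tested. The last 10 Mb of the chromosomes exceeded the rest by 0.034, 0.013, 0.016, -0.005, 0.021 and 0.006 for PHx1M to PHx6F, with 5 of 6 above 0 (mean 0.014 ± 0.013, SD, n = 6; exact sign-flip test, two-sided p = 0.0625). Both differences were below the standard error of 1 bin or close to it and rest on averages over 54 to 74 bins at the starts and 43 to 46 at the ends in each tumor.

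**Figure D4:**
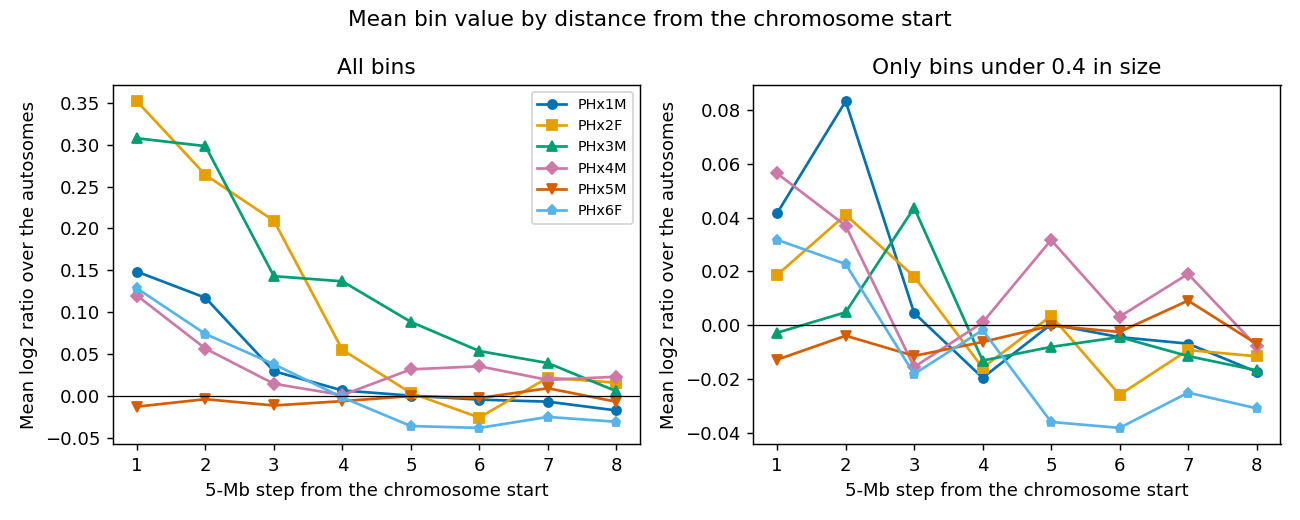
Mean log2 ratio of the 5-Mb bins over the autosomes that had the bin (17 to 19) by step from the chromosome start (x axis, steps 1 to 8) for each of the 6 tumors (lines), over all bins (left) and over bins under 0.4 in size (right, with a narrower vertical axis). On the left, 5 tumors start between 0.12 and 0.35 and PHx5M at -0.013. On the right, the highest value is 0.083.

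For genes, the probes of each were averaged and tested over the 6 tumors with limma. Of 19218 genes, 719 (3.74%) were called above 0 and 645 (3.36%) below 0. Most of these calls did not stand on a shift of the surrounding chromosome. The called genes had a median size of 0.20, whereas the 5-Mb bins around them had a median size of 0.017 in the mean of the tumors, about that of all genes (0.018). A single probe represented 61.8% of the called genes and 43.9% of all genes. After subtraction of the bin mean, the remaining values of single probes correlated between any 2 arrays, with r of 0.31 to 0.50 for arrays of the same slide and 0.12 to 0.30 for arrays of different slides. The part of such probe effects, which recur on every array, in the gene calls was not tested. The number of calls changed with the tumor left out. Without PHx3M no gene was called (4366 at an unadjusted p under 0.05), without PHx1M 20, without PHx2F 13, without PHx4M 73, without PHx5M 801 and without PHx6F 549, and on slide 1 alone none was called (5661 at an unadjusted p under 0.05). Gene calls below are therefore set beside the value of the gene's bin.

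The 6 genes with the highest means among those called, with at least 2 probes and above 0 in all tumors, all lay in the first 15 Mb of chromosome 18. They were Zeb1, a repressor of epithelial genes, Arhgap12, Mkx, Kif5b, a kinesin motor, Svil and Ss18. Svil had the most probes (6) and values of 0.53, 1.61, 0.87, 0.37, 0.25 and 0.96 for PHx1M to PHx6F (mean 0.76, limma adjusted p = 0.037). The means of the 6 genes were 0.75 to 0.84. Their bins had values of 0.14 to 0.17 in PHx5M, far below those of PHx2F. In PHx5M the whole of chromosome 18 was raised, and its bins from 20104301 on had a mean of 0.11. In PHx4M the bin of Zeb1 had 0.20 and that of Ss18 -0.031, and Ss18 itself had 0.49. Called genes with low means by the same criteria included Ptpn3, Dntt, Ccdc98, Ihpk1 and 2310032F03Rik, on 5 chromosomes. Ptpn3 on chromosome 4, a protein tyrosine phosphatase, had values of -0.52, -0.41, -0.35, -0.71, -0.77 and -0.27 from 2 probes (mean -0.50, limma adjusted p = 0.017). Its bin lay at -0.25 in PHx5M and between -0.035 and 0.091 in the other 5 tumors. The bins of the other 4 genes had values between -0.13 and 0.060 in all tumors, so outside PHx5M none of these 5 genes lay in a bin below -0.10.

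Among genes with at least 2 probes, the highest in PHx2F was Crem, a cAMP-responsive transcription factor, at 3.91 (15-fold, bin 2.70). In PHx3M it was A330021E22Rik at the start of chromosome 5, at 2.06 (bin 1.63). In PHx4M it was Zbp1, a sensor of unusual nucleic acids, at 1.05 in the distal gain of chromosome 2 (bin 0.62). In PHx6F it was a transcript listed by a sequence identifier in the chromosome 17 gain, at 1.38 (bin 0.94). These 4 stood in raised bins. The highest of PHx1M, Metapl1 at 0.95, did not (bin -0.006), nor did Mfhas1 on chromosome 8, the highest of PHx5M at 1.20 (bin -0.014). Mfhas1 was nearly as high in PHx6F, at 1.15, while PHx1M to PHx4M had -0.004, 0.008, -0.003 and 0.039, so that the 2 tumors of slide 2 were high and the 4 of slide 1 were not. The lowest genes were EG214403 in PHx1M (-1.80), Gtf2h1, a subunit of the repair and transcription factor TFIIH, in PHx2F (-1.08), A430090E18Rik in PHx3M (-0.79), Ptpn3 in PHx4M (-0.71), a transcript listed by a sequence identifier on chromosome 4 in PHx5M (-0.81) and Prim2, a primase subunit, in PHx6F (-0.87). Of these only the one in PHx5M lay in a lowered bin (-0.22).

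Of all genes, 805 (4.19%) had values of at least 0.4 in at least 2 tumors, 2917 (15.2%) lay in a bin at 0.15 or above in at least 1 tumor and 1904 (9.91%) in a bin at -0.15 or below in at least 1. Against this background, 5 lists of genes were followed, each described by its counts. Among 43 measured growth-promoting oncogenes, 14 (32.6%) lay in a raised bin and 2 (4.65%) in a lowered bin, 7 had at least 0.4 in at least 2 tumors, and 1 was called above and 2 below 0. The median of their means was 0.042, against 0.008 over all genes. The 14 include groups of neighbours, 4 of them in the distal gain of chromosome 2. They also include Crem, which the paper picked out for its amplification in these tumors, and its neighbour Map3k8. The list is thus not independent of these data, and its share cannot be read as an excess over the background.

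Crem and Map3k8, a kinase upstream of MAP kinases, lie together at the start of chromosome 18. Crem had 0.38, 3.91, 0.89, 0.12, 0.19 and 0.88 in PHx1M to PHx6F, and Map3k8 had 0.50, 2.56, 0.70, 0.34, 0.078 and 0.91. Both were highest in PHx2F and low in PHx5M, and neither passed limma's test (adjusted p = 0.18 and 0.105). Cdk6, a kinase that drives entry into S phase, lies at the start of chromosome 5 and had 0.68, 1.05, 1.64, 0.21, -0.014 and 0.78 (limma adjusted p = 0.061), with its bin at -0.024 in PHx4M and 0.007 in PHx5M. Insr, the insulin receptor, at the start of chromosome 8, had 0.14, 0.43, 1.16, 0.84, 0.39 and -0.024 (limma adjusted p = 0.079). In PHx5M its probes lay higher than its bin, which had 0.071. In PHx1M they lay lower than the bin, which had 0.49. Ccne1, the cyclin E1 gene on chromosome 7, had 0.46 in PHx3M and 0.69 in PHx4M and -0.16 to 0.001 in the other 4.

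The distal gain of chromosome 2 carried Src, a tyrosine kinase, Bcl2l1, which protects cells from apoptosis, E2f1, which activates S-phase genes, and Aurka, a mitotic kinase. Src had 0.52 in PHx3M and 0.76 in PHx4M, with 0.013 to 0.17 in the other 4. Bcl2l1 had 0.56 and 0.69, E2f1 0.30 and 0.45, and Aurka 0.23 and 0.46 in these 2 tumors. All 4 were higher in PHx4M than in PHx3M, as the bins were (0.40 to 0.41 in PHx3M and 0.62 to 0.63 in PHx4M). In PHx5M, where the whole chromosome was slightly lowered, they had -0.048 to 0.013. Of the 3 called oncogenes, Mcl1 (mean 0.21, limma adjusted p = 0.024) was above 0, and Nras (-0.14, limma adjusted p = 0.037) and Notch1 (-0.14, limma adjusted p = 0.044) below. The bins of these 3 genes lay between -0.082 and 0.024 in all tumors. Mcl1 and Nras had 1 probe each and Notch1 had 2.

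Among 36 measured tumor suppressors, 3 (8.33%) lay in a raised bin and 5 (13.9%) in a lowered bin, 1 had at least 0.4 in at least 2 tumors, 1 was called above and 2 below 0, and the median of their means was -0.002. Chromosome 4 of PHx5M carried Cdkn2a, which encodes inhibitors of the cell cycle and of p53 degradation (-0.24), Arid1a, a chromatin remodeller (-0.25), and Chd5, another one (-0.19). In the other 5 tumors Cdkn2a had -0.20 to 0.11, Arid1a -0.14 to 0.14 and Chd5 -0.074 to 0.14. PHx5M was the lowest tumor for all 3, by the least for Cdkn2a. On chromosome 18, Apc, which restrains beta-catenin, had 0.75 in PHx2F, 0.30 in PHx5M, -0.64 in PHx1M and -0.20 to -0.037 in the others. The value of PHx1M came from 2 probes in a bin at -0.017. Smad2 and Smad4, which carry TGF-beta signals to the nucleus, lie in the lowered far part of chromosome 18. Smad2 had -0.52 in PHx6F, -0.23 in PHx1M and -0.18 in PHx2F, with its bin at -0.19, -0.081 and -0.13. It had only -0.039 in PHx3M with its bin at -0.13, and 0.14 in PHx4M with its bin at -0.087. In PHx5M it had 0.020 with its bin at 0.075. Smad4 had -0.15 in PHx6F, -0.12 in PHx3M, -0.098 in PHx2F, 0.015 in PHx4M and 0.16 in PHx5M, and 0.15 in PHx1M with its bin at -0.030. Cebpa, a regulator of hepatocyte differentiation that also limits growth, had 0.53 in PHx3M and 0.57 in PHx4M on chromosome 7. The called members were Tgfbr2 (mean 0.15, limma adjusted p = 0.040), Socs3 (-0.18, limma adjusted p = 0.044) and Wwox (-0.14, limma adjusted p = 0.047), each on 1 side of 0 in all 6 tumors. Their bins lay between -0.050 and 0.082. Socs3 had 1 probe, and Tgfbr2 and Wwox had 2 each.

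Among 34 measured liver regeneration signals, 7 (20.6%) lay in a raised bin and 4 (11.8%) in a lowered bin, and none had at least 0.4 in at least 2 tumors. The only calls were Tgfbr2 and Socs3, which this list shares with the tumor suppressors. Jak1, a kinase of the interleukin-6 response, had the largest mean (0.21, limma adjusted p = 0.17), with 0.62 in PHx4M, 0.33 in PHx2F and -0.11 in PHx5M. Its bin lay between -0.008 and 0.067 outside PHx5M and at -0.26 in PHx5M. Jun, an early response gene after hepatectomy, had -0.32 in PHx5M and 0.032 to 0.18 in the other 5, and its bin lay at -0.27 in PHx5M. Hbegf, a ligand of the EGF receptor on chromosome 18, had 0.61 in PHx2F and 0.22 in PHx5M and -0.22 to -0.14 in the others, in step with its bin (0.51, 0.19 and -0.15 to -0.021). Tgfbr1 had -0.052 in PHx5M although its bin was at -0.25.

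Among 34 measured genes of the DNA damage response and replication, 5 (14.7%) lay in a raised bin and 4 (11.8%) in a lowered bin, 2 had at least 0.4 in at least 2 tumors, and 1 was called above 0. That gene was Atm, the kinase that signals double-strand breaks, with 0.19, 0.16, 0.21, 0.14, 0.19 and 0.26 (mean 0.19, limma adjusted p = 0.021) and bins of -0.040 to 0.009. Mcm3, a subunit of the replicative helicase on chromosome 1, had 0.83 in PHx3M, where its bin was at 0.57, and also 0.50, 0.61 and 0.47 in PHx2F, PHx5M and PHx6F, where its bins were at 0.024, 0.042 and -0.043. Lig4, the ligase of end joining on chromosome 8, had 0.45, 0.80 and 0.41 in PHx1M, PHx3M and PHx4M. Nbn, part of the complex that senses double-strand breaks, lies on chromosome 4 and had 0.72 in PHx2F and -0.45 in PHx5M, with its bin at 0.41 and -0.31. The rest of the list on that chromosome had -0.34 (Clspn), -0.096 (Rpa2) and -0.054 (Orc1l) in PHx5M.

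Among 37 measured hepatocyte and bile genes, 7 (18.9%) lay in a raised bin and 4 (10.8%) in a lowered bin, 4 had at least 0.4 in at least 2 tumors and none was called (5 at an unadjusted p under 0.05). The 4 are transcription factors that maintain hepatocyte identity. Hnf4a and Foxa2 lie in the distal gain of chromosome 2, with 0.89 and 0.43 in PHx3M and 0.77 and 0.63 in PHx4M. Each had 1 probe, and their bins had 0.41 and 0.38 in PHx3M and 0.63 and 0.63 in PHx4M. Hnf4a also had 0.33 in PHx1M, where its bin was at 0.029. Cebpa and Foxa3 lie on chromosome 7, and Foxa3 had 0.46 in PHx1M and 0.89 in PHx3M but 0.007 in PHx4M, whose gain started beyond it. Cyp7a1, the rate-limiting enzyme of bile acid synthesis, lies at the start of chromosome 4 and had 0.57 in PHx2F and -0.29 in PHx5M, with bins of 1.13 and -0.22. Nr0b2, a repressor of Cyp7a1, had -0.34 in PHx5M and 0.052 to 0.40 in the other 5. Abcb4, the gene disrupted in these mice, had 1.67 in PHx3M and -0.098 to 0.27 in the others, in a bin at 1.63 in PHx3M. Tumor and liver carry the same knockout, so this ratio does not check the genotype.

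Over all lists, PHx5M had 13 listed genes on its lowered chromosome 4, all below 0, from -0.45 to -0.05 with a median of -0.24. Frap1, the gene of the growth kinase mTOR, had -0.16 there and 0.010 to 0.20 in the other 5 tumors. On its chromosome 2, which was lowered less, 7 of 12 listed genes were below 0, from -0.24 to 0.051 with a median of -0.043. The lowest were Pck1, a key enzyme of gluconeogenesis (-0.24), Notch1 (-0.23) and Trp53bp1 (-0.11), while Ass1, a urea cycle enzyme, had -0.079, Tsc1 -0.065 and Abcb11, the bile salt export pump, 0.006. On its raised chromosome 18 all 7 listed genes were above 0, from 0.020 to 0.30. Ttr, a plasma protein of hepatocytes, had 0.091 in PHx5M and -0.31 in PHx6F. Single genes thus spread around the level of their chromosome by about as much as the shift itself.

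**Figure D5:**
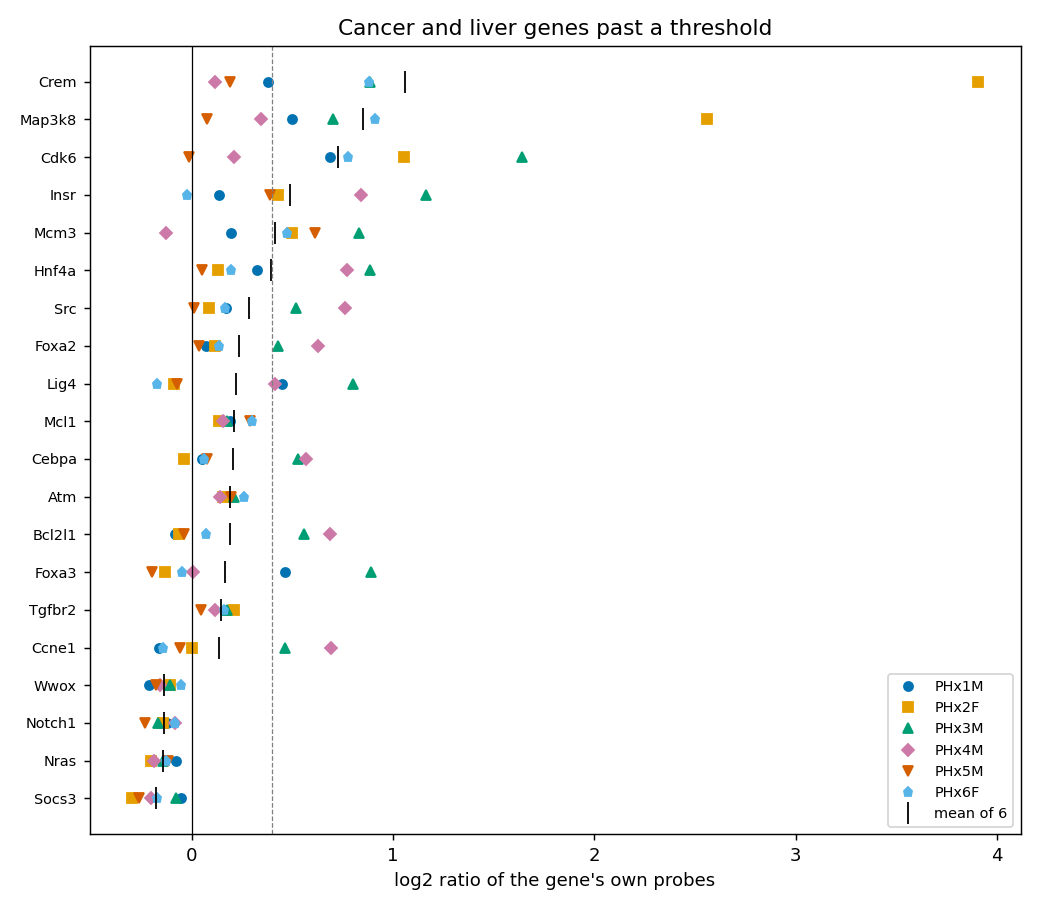
Log2 ratio of tumor over own liver from the gene's own probes for the 20 listed genes that were called by limma or reached 0.4 (dashed line) in at least 2 tumors, ordered by their mean (black bar). Points are the 6 tumors. Crem and Map3k8 are spread widest, with PHx2F at 3.91 and 2.56, whereas called genes such as Atm and Mcl1 have all 6 tumors close together at small values.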

How the data were processed

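Per the file headers, the authors deposited Feature Extraction 10.5.1.1 output of 4 × 44K mouse CGH arrays on mm8 (NCBI36). The deposited signal intensities of each channel were background-subtracted and dye-normalized by that software. For each spot the authors deposited a log10 ratio, red processed intensity over green, and at least 99.7% of the ratios equalled the log10 of the deposited signals within 0.001.

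For this report, log10 ratios were converted to log2. Controls and the 276 to 1218 spots per array with outlier marks were dropped, repeated spots were merged to 1 mean per probe, and the autosomal median of an array was subtracted. Probes were averaged in 5-Mb bins (at least 5 probes) and by the gene name in the files. Position names were left out, and older symbols were matched through the RefSeq table where they named 1 gene. The mean over 6 tumors was tested against 0 with limma 3.58.1 (R 4.3.3, Benjamini-Hochberg over all bins or genes), which was tested on simulated data. Chromosome medians and position differences were tested with the exact two-sided sign-flip test. The rest used Python 3.11.15. Nothing says more of replication than 1 array per tumor, and the number of arrays limits the precision. The 6 other arrays of the series were not used here.

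Named genes were up to 6 per direction among calls with at least 2 probes and 1 sign in all tumors, the highest and lowest of each tumor, listed genes called or at least 0.4 in 2 tumors, those on called whole chromosomes, and 1 per list with the largest mean. Stretches of chromosomes and the mention of Vegfa were set after values were seen. The members, lists and thresholds were chosen with earlier results of these data known. Some genes are not reported here. Alternatives were normexp background correction (offset 50), other centring, probe filters, medians, other bin sizes and thresholds, the slide as a block or slide 1 alone, and each tumor left out.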

Additional observations from a re-analysis of the deposited data

Results flagged for a closer look

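In 89 sets of 6 tumor values (19 chromosome medians, 68 named genes and the 2 position differences), 13 had 1 tumor far from the others by Dixon's criterion, which chance alone meets in about 1 of 20 sets. That rate does not apply to the genes, as some were named for being the highest or lowest of a tumor. Among the chromosome medians, PHx5M stood apart on chromosome 4 (-0.23, others -0.001 to 0.085), chromosome 1 (0.012, others -0.020 to -0.010) and chromosome 19 (0.037, others -0.015 to 0.004), and PHx6F on chromosome 8 (0.086, others 0.034 to 0.045). PHx5M was also apart for Jun, at -0.32. PHx2F was apart for Crem (3.91), Map3k8 (2.56), Nbn (0.72) and Gtf2h1 (-1.08). The first 3 of these lay in its gained bins, whereas the bin of Gtf2h1 was at -0.032. PHx3M was apart for Abcb4 (1.67) and PHx6F for the transcript of the chromosome 17 gain that is listed by a sequence identifier (1.38). PHx1M was apart for Metapl1 (0.95, others -0.42 to -0.27) and EG214403 (-1.80, others -0.42 to -0.005), each from 2 probes in bins at -0.006 and -0.090.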

How the results depend on the processing

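Each array already held a tumor and its own liver, so the test of the ratio against 0 was itself the paired comparison. No separate paired analysis was run. The count of called bins (1) was 0 with no centring (126 at an unadjusted p under 0.05), 0 with probes well above background (115), 0 with medians of probes (99), 0 with bins of 2 Mb (255) and 0 with bins of 10 Mb (55), but 7 with outlier spots kept, 7 with the slide as a random block, 11 on slide 1 and 71 (11 above and 60 below 0) after normexp correction. It ranged from 0 to 62 when tumors were left out. The 1364 called genes became 7599 after normexp correction, 766 with the slide as a block, 406 of 10775 with at least 2 probes, 0 on slide 1 and 0 to 801 when tumors were left out. The mean number of whole-chromosome shifts per tumor (0.5) was 1.5 at a size of 0.05, 0.17 at 0.15, 0 on slide 1 and 0 to 0.6 when tumors were left out, with 0 without PHx5M. Limma called 1 autosome where the exact test, which a single autosome cannot pass after adjustment, called 0. The excess of the first 20 Mb ran from 0.017 to 0.025 when tumors were left out and was 0.024 on slide 1, with exact p of 0.0625 and 0.125, the smallest that 5 and 4 tumors allow. That of the last 10 Mb was 0.015 with p = 0.031 (exact) when only bins under 0.25 were used, and 0.009 (exact p = 0.188) for the last 20 Mb, while that of the first 10 Mb was 0.037 (exact p = 0.031). The causes were not tested. Of the called genes 719 were above 0 and 645 below, but 636 above and 706 below with no centring and 189 above and 217 below with at least 2 probes. The means of chromosomes 2, 4 and 18, all within their spread of 0, changed sign under some alternatives, chromosome 4 from -0.009 to 0.034 without PHx5M. Both position differences stayed above 0. A correction for GC content was not run, as no probe sequences or genome of this build were used here. Signals of 3.34 to 12.7 times the background limit single probes more than bins.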
